A study of Mus musculus with 2 samples.

Results

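The MHC class I and peptide loading genes described here are 10 of the 32285 gene rows in the count matrices, chosen by symbol. They are the heavy chains H2-K1, H2-D1, H2-Q4, H2-Q6, H2-Q7, H2-T22 and H2-T23, the light chain B2m, the peptide transporter subunit Tap1 and the transcriptional activator Nlrc5. Each of the 10 symbols had 1 row, and all 10 were detected in both libraries. Single-cell 3′ RNA libraries were made by droplet capture from spleen immune cells of C57BL/6 animals, 1 library from an RPA1 conditional knockout (CKO) and 1 from a wild type (WT). RPA1 encodes a subunit of the RPA complex, which coats single-stranded DNA during replication and repair. The labels give neither the deleted exons, the Cre driver, the age nor the number of mice behind a library. With 1 library per genotype, genotype, mouse and library cannot be told apart, and no value below carries a test between genotypes.

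MHC class I molecules sit on nearly all nucleated cells and show peptides from inside the cell to CD8 T cells. A heavy chain pairs with beta-2 microglobulin in the endoplasmic reticulum, receives a peptide that the TAP transporter has pumped in from the cytosol, and moves to the surface. NK cells read the same molecules through inhibitory receptors, so that loss of class I can release their killing. Transcription of heavy chains, B2m and the transporter is driven by NLRC5, which acts through a protein complex on the promoters' X and Y boxes, and is raised further by interferons through factors such as IRF1.

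The 8 class I family and transporter genes of the group lie in the MHC region of chromosome 17, while B2m and Nlrc5 lie outside it. On mm10, H2-K1 spans chr17:33996017-34000347 and Tap1 chr17:34187553-34197225. H2-D1 (chr17:35262730-35267499), H2-Q4 (chr17:35379617-35385290), H2-Q6 (chr17:35424850-35430055) and H2-Q7 (chr17:35439155-35443773) follow on the plus strand. H2-T23 (chr17:36029773-36032855) and H2-T22 (chr17:36037128-36042747) lie on the minus strand. B2m spans chr2:122147686-122153083 and Nlrc5 chr8:94434356-94527272, both on the plus strand. All 10 are annotated as protein coding.

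The starts of H2-Q4, H2-Q6, H2-Q7 and B2m are printed because NLRC5 works on such promoters and because H2-Q6 and H2-Q7 differed more between the libraries than the other heavy chains in follicular B cells. The sequences come from RefSeq (GRCm38.p6, plus strand) and end just before the outermost annotated start, at chr17:35379432-35379616, chr17:35424665-35424849, chr17:35438955-35439139 and chr2:122147501-122147685. Capitals mark the letters TGACG (the core of the X2 box), CCAAT or its complement ATTGG (the Y box), GGGATTCC (a kappa B site) and GAAANNGAA (the core of an interferon response element), on either strand.
H2-Q4: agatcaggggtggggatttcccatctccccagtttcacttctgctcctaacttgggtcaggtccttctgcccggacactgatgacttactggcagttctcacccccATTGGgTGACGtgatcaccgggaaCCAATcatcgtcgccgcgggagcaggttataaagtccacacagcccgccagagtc
H2-Q6: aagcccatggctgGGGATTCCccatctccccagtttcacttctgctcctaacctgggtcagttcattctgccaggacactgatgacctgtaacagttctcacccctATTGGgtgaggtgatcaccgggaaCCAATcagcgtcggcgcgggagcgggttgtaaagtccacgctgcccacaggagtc
H2-Q7: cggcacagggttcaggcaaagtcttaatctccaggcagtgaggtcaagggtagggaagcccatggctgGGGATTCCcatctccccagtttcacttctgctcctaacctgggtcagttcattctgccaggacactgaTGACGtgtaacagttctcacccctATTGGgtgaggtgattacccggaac
B2m: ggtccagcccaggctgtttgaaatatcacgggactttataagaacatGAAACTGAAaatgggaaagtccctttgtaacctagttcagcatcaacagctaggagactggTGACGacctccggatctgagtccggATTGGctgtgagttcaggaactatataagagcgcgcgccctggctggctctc
Promoters of 9 members were in the table, all but Nlrc5. Over the 250 bases before the RefSeq start, searched on both strands, CCAAT was in 9 of these 9 windows, against 34.5% of 27025 promoters. TGACG was in 7 of 9, against 17.8% of promoters. This counts letters and not X2 boxes, as the place of the match differed between genes. In H2-K1, H2-D1, H2-Q7 and B2m it lay before an ATTGG, and in H2-Q4 just after one. In H2-T22 and Tap1 it lay nearer the start than every CCAAT or ATTGG. GGGATTCC was in 4 of 9, those of H2-K1, H2-D1, H2-Q6 and H2-Q7, against 0.877% of promoters. GAAANNGAA was in 3 of 9, those of H2-T22, H2-T23 and B2m, against 7.16% of promoters. The heavy chain genes are copies of each other, so these windows are not independent. Of the 3 H2-Q genes, H2-Q4 and H2-Q7 hold TGACG and H2-Q6 holds none in this window. The H2-Q4 and H2-Q7 matches are at different places. Where H2-Q7 reads gacactgaTGACG, H2-Q4 reads gacactgatgact and H2-Q6 reads gacactgatgacc. A match shows only that the letters are there, and a window without one may hold the element in another spelling.

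Cells were placed into classes by UMIs of marker genes, and class names below stand for these gates. The CKO library gave 11317 cells and the WT library 11285 cells after filtering, with a median of 4499 UMIs per cell in CKO and 5334 in WT. CD4 and CD8 T cells were fewer in CKO, with 288 CKO and 1231 WT CD4 T cells and 65 CKO and 1177 WT CD8 T cells, while γδ T cells numbered 96 in CKO and 30 in WT. Follicular B cells numbered 5241 in CKO and 4172 in WT, and NK cells 831 in CKO and 350 in WT. With these, 13 classes held at least 20 cells in each library, the smallest being 36 CKO and 22 WT type 2 conventional dendritic cells. Rpa1, the targeted gene, had 35.8 CPM in CKO and 46.1 CPM in WT CD4 T cells, a ratio of 0.776 (0.584 to 1.02), and 35.8 CPM in CKO and 37.5 CPM in WT follicular B cells. Its interval held 1 in every reported class but γδ T cells. There it was higher in CKO, with 26 CKO UMIs and 1 WT UMI. These 3′ counts need not show a deletion of an upstream exon. Only 36 barcodes were shared by the libraries, 0.278% of the CKO and 0.271% of the WT barcodes.

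CPM below is a gene's UMIs per 1000000 UMIs summed over a class. A 3′ tag is counted once per transcript whatever its length, so CPM does not grow with transcript length. Genes can still differ in how many tags are captured and mapped to them alone, which limits comparisons between genes. Ratios are CKO over WT, and the ranges in parentheses are exact 95% intervals that cover counting error only. They leave out the spread between mice, which 1 library per genotype does not show.

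Across the spleen, class I transcripts were most abundant in non-classical monocytes, plasmacytoid dendritic cells and NK cells, and scarcest in neutrophils. The 10 members together made up 10328 CPM in CKO and 9960.2 CPM in WT non-classical monocytes, the patrolling blood monocytes. Plasmacytoid dendritic cells, the main interferon producers, had 8792 CPM in CKO and 10849 CPM in WT. NK cells had 9068 CPM in CKO and 9679.9 CPM in WT. Neutrophils had 1602 CPM in CKO and 2019.8 CPM in WT. Conventional T cells lay between, with 6049 CPM in CKO and 6613 CPM in WT CD4 T cells and 6743 CPM in CKO and 6531 CPM in WT CD8 T cells. Regulatory T cells, at 8079 CPM in CKO and 9066 CPM in WT, and γδ T cells, at 8386 CPM in CKO and 8919 CPM in WT, held more than CD4 and CD8 T cells in both libraries. B cells lay below the T cells in both libraries, with 4252 CPM in CKO and 5199.6 CPM in WT follicular B cells. Within B cells the order was the same in both libraries: marginal zone above follicular above transitional, with no overlap of neighbouring intervals.

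**Figure D1:**
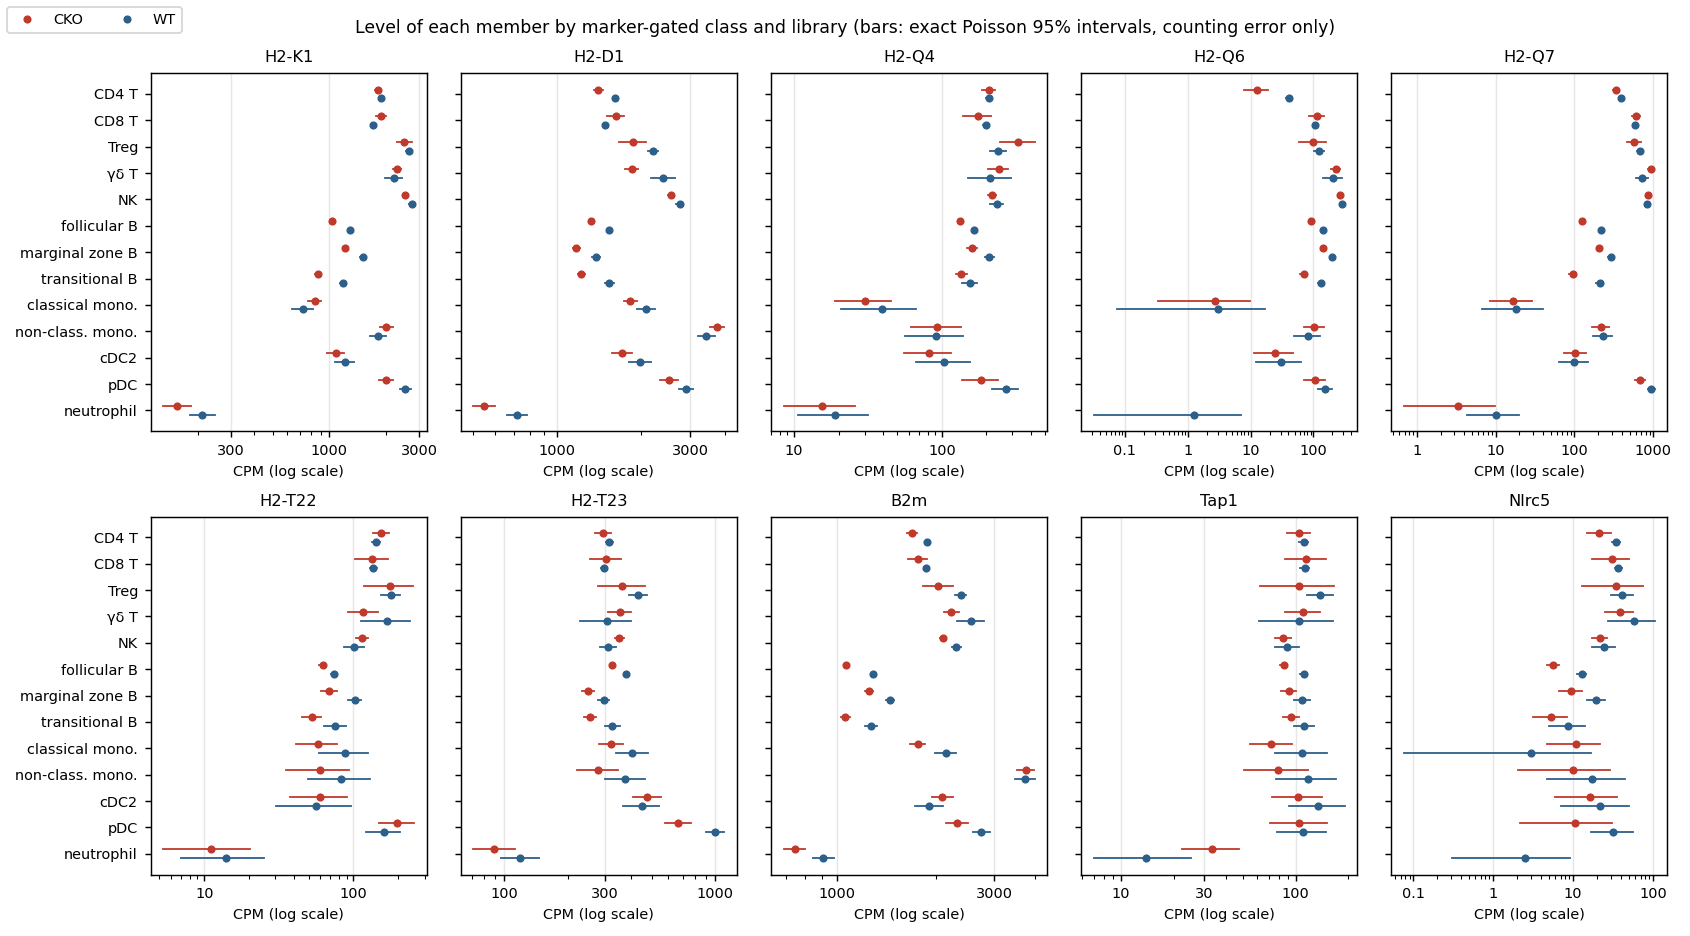
Level of each of the 10 members (CPM, log scale) in 13 marker-gated classes, CKO above WT, with exact Poisson 95% intervals. In the 3 B cell classes the CKO points lie left of the WT points for all 10 genes, while in CD8 T cells and NK cells the points lie close together. H2-Q6 and Nlrc5 had 0 UMIs in CKO neutrophils and have no CKO point there.

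The 2 classical heavy chains, which present peptides to CD8 T cells, were the most abundant heavy chains in every reported class. H2-D1 was highest in non-classical monocytes, with 3743 CPM in CKO and 3420.4 CPM in WT, and was at 1169 CPM in CKO and 1377 CPM in WT marginal zone B cells. H2-K1 was highest in NK cells, with 2524 CPM in CKO and 2751 CPM in WT, where its interval overlapped that of regulatory T cells. It was far lower in classical monocytes, at 839.7 CPM in CKO and 722 CPM in WT. The balance of these genes therefore differed between classes. There were 1.3 H2-K1 UMIs per H2-D1 UMI in CKO CD4 T cells and 1.17 in WT CD4 T cells, but 0.460 in CKO classical monocytes and 0.347 in WT classical monocytes. In follicular B cells there were 0.782 (0.769 to 0.795) in CKO and 0.846 (0.832 to 0.860) in WT.

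Each non-classical heavy chain was less abundant than H2-D1 in every class. H2-Q7 encodes Qa-2, a class I molecule that can be anchored in the membrane by a lipid, and H2-Q6 is its near relative. H2-Q7 had 931 CPM in CKO and 725 CPM in WT γδ T cells, and 846 CPM in CKO and 831 CPM in WT NK cells, but only 3.32 CPM in CKO and 10.1 CPM in WT neutrophils. H2-Q6 was highest in NK cells, at 262 CPM in CKO and 287 CPM in WT. H2-Q4, another Qa region gene, had 219 CPM in CKO and 236 CPM in WT NK cells. H2-T23 encodes Qa-1, which presents leader peptides of other class I molecules to the NK receptor CD94/NKG2A. Plasmacytoid dendritic cells had the highest H2-T23 level in both libraries, 667 CPM in CKO and 999 CPM in WT. H2-T22, a ligand for a set of γδ T cell receptors, ranged over 11.1 to 197 CPM in CKO classes and 13.9 to 177 CPM in WT classes.

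B2m followed the heavy chains from class to class but not in a fixed proportion. NK cells held 3.28 heavy chain UMIs per B2m UMI in CKO and 3.16 in WT. Follicular B cells held 2.90 in CKO and 2.96 in WT. Neutrophils held 1.11 in CKO and 1.2 in WT. Classical monocytes, with 1.76 in CKO and 1.57 in WT, also held fewer than lymphocytes. Tap1 varied less between classes: apart from neutrophils it stayed within 72.6 to 115 CPM in CKO and 89.4 to 138 CPM in WT. Nlrc5 was scarce everywhere. It reached 38.6 CPM in CKO and 57.5 CPM in WT γδ T cells, from 26 CKO and 10 WT UMIs, and was at 5.66 CPM in CKO and 12.8 CPM in WT follicular B cells.

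In follicular B cells, the most numerous class, all 10 genes were lower in CKO than in WT. Their sum was 4252 CPM in CKO and 5199.6 CPM in WT, a ratio of 0.818 (0.811 to 0.825). The classical heavy chains were lower by less than H2-Q6 and H2-Q7, and Nlrc5 was lowest relative to WT. A gene was counted as measured in a class when its mean over both libraries was at least 10 CPM with at least 50 UMIs in all, and as called when it differed at least 1.3-fold. Of the 9 measured members 2 were called lower in CKO, H2-Q6 and H2-Q7, against 0.731% of 7385 measured genes, and 0 were called higher, against 0.907%. All 9 had ratios below 1, against 35.5% of all measured genes. Their median log2 ratio was -0.32, against 0.038 for all measured genes.

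H2-K1 had 1035 CPM in CKO and 1293 CPM in WT follicular B cells, a ratio of 0.801 (0.787 to 0.815). H2-D1 had 1323 CPM in CKO and 1529 CPM in WT, a ratio of 0.866 (0.852 to 0.879). The classical pair was thus lower by less than 1.3-fold, with intervals clear of 1. H2-Q7 stood at 124 CPM in CKO and 215 CPM in WT (0.578, 0.552 to 0.606). H2-Q6 stood at 92.6 CPM in CKO and 141 CPM in WT (0.659, 0.624 to 0.696). These Qa-2 genes were the furthest from 1 among the measured members. H2-Q4 had 132 CPM in CKO and 165 CPM in WT, H2-T22 had 62.1 CPM in CKO and 74.3 CPM in WT, and H2-T23 had 324 CPM in CKO and 376 CPM in WT. Their ratios were 0.798, 0.836 and 0.863. B2m, the light chain that pairs with these heavy chains, had 1067 CPM in CKO and 1283 CPM in WT, a ratio of 0.832 (0.817 to 0.846). Tap1 had 85.2 CPM in CKO and 111 CPM in WT, a ratio of 0.770 (0.725 to 0.817), just short of the 1.3-fold line at 0.769. Nlrc5 fell under the minimum of 10 CPM and was not among the measured genes. Its 141 UMIs in CKO and 262 UMIs in WT gave a ratio of 0.442 (0.357 to 0.544).

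Counts per cell were lower in CKO follicular B cells at the median and upper quartile, but not at the lower quartile. At such low counts, a shift in all cells cannot be told from one in a part of them. With each cell thinned to 1000 UMIs, the median cell held 4 member UMIs in CKO and 5 in WT, the lower quartile was 3 in both, and the upper quartile was 6 in CKO and 7 in WT. Cells with 0 member UMIs made up 2.48% in CKO and 1.27% in WT. After the same thinning, the share of cells with an H2-Q7 UMI was 11.2% (10.4 to 12.1) in CKO, against 19.3% (18.1 to 20.6) in WT. Without thinning, the H2-Q7 shares were 37.7% in CKO and 57.2% in WT. In neutrophils, which had the lowest H2-Q7 level, the unthinned shares were 4.76% in CKO and 9.84% in WT, at a median of 12883 UMIs in CKO and 12504 UMIs in WT. In follicular B cells the 3 Cd3 genes, markers of T cells, summed to 3.05 CPM in CKO and 13.9 CPM in WT, against 2288 CPM in CKO and 2325 CPM in WT CD4 T cells. The 5 B cell markers summed to 7473 CPM in CKO and 7308 CPM in WT follicular B cells. The 10 neutrophil markers summed to 74.5 CPM in CKO and 46.3 CPM in WT follicular B cells. The part of this RNA of other cells in the result was not tested.

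**Figure D2:**
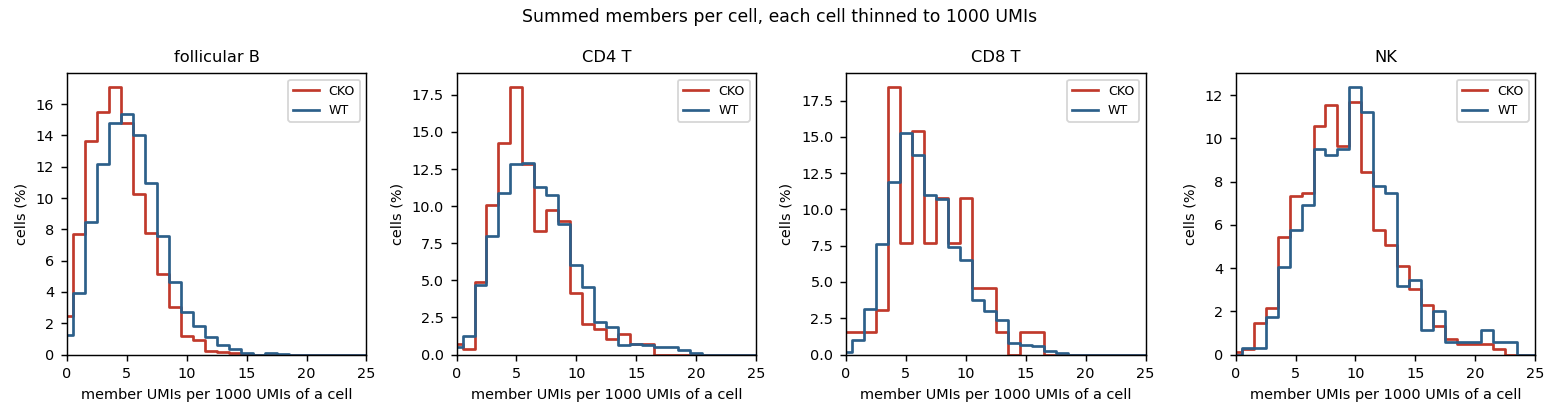
Distribution over cells of summed member UMIs after thinning each cell to 1000 UMIs (x axis, UMIs; y axis, percent of the library's cells in the class), CKO red and WT blue. In follicular B cells the CKO curve lies left of the WT curve, with medians of 4 in CKO and 5 in WT, while the CD8 T curves, from 65 CKO and 1177 WT cells, overlap.

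Marginal zone B cells, which line the sinus and respond to blood-borne antigen, gave the same direction for every member. Their sum was 4564 CPM in CKO and 5550.5 CPM in WT, a ratio of 0.822 (0.806 to 0.839). All 10 members were measured and 5 were called lower in CKO, against 5.18% of measured genes, with 0 called higher, against 6.71%. The called genes were H2-Q4 (159 CPM in CKO and 209.9 CPM in WT), H2-Q6 (143 CPM in CKO and 197 CPM in WT), H2-Q7 (207 CPM in CKO and 288 CPM in WT), H2-T22 (68.6 CPM in CKO and 102 CPM in WT) and Nlrc5 (9.48 CPM in CKO and 19.4 CPM in WT). The Nlrc5 ratio was 0.488 (0.319 to 0.739). H2-T22 reads can also come from H2-T10: 33.4% of the 90-base windows in the last 400 bases of its transcript are identical to H2-T10, a gene with no row in the matrices.

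Transitional B cells, the recent arrivals from the bone marrow, showed the lowest sum relative to WT among the B cell classes. Their sum was 3855 CPM in CKO and 5004 CPM in WT, a ratio of 0.770 (0.750 to 0.791). Of 9 measured members 4 were called lower in CKO, against 6.12% of measured genes, and 0 higher, against 12.5%. These were H2-K1 (867 CPM in CKO and 1184 CPM in WT), H2-Q6 (69.5 CPM in CKO and 132 CPM in WT), H2-Q7 (95.3 CPM in CKO and 209 CPM in WT) and H2-T22 (52.7 CPM in CKO and 75.7 CPM in WT). The H2-Q7 ratio was 0.457 (0.393 to 0.530). H2-Q4 and Tap1 were below 1 with intervals that reached it, at 0.875 (0.755 to 1.02) and 0.841 (0.705 to 1.01). All B lineage cells pooled, 8898 in CKO and 6647 in WT, gave a sum of 4241 CPM in CKO and 5219 CPM in WT, a ratio of 0.813 (0.808 to 0.818).

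**Figure D3:**
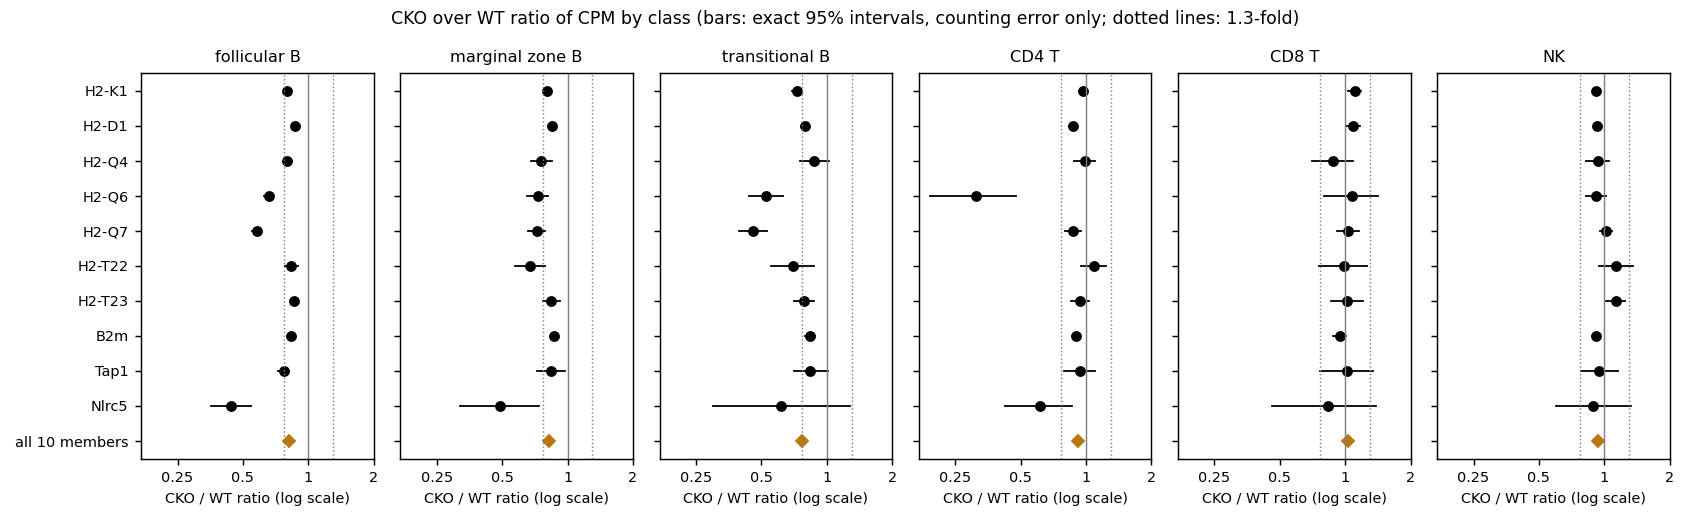
CKO over WT ratio of each member and of their sum (diamond) in 6 classes, on a log scale, with exact 95% intervals for counting error. All points lie below 1 in the 3 B cell classes. In CD8 T cells and NK cells they lie within the dotted 1.3-fold lines, and in CD4 T cells H2-Q6 and Nlrc5 lie below the lower line.

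In CD4 T cells 9 of the 10 members were lower in CKO, H2-Q6 and Nlrc5 by the most, and H2-T22 was at 1.09. Their sum was 6049 CPM in CKO and 6613 CPM in WT, a ratio of 0.915 (0.896 to 0.934). Of 10 measured members 2 were called lower in CKO, against 8.04% of 7243 measured genes, and 0 higher, against 9.47%. H2-K1 was close in both libraries, at 1821 CPM in CKO and 1884 CPM in WT (0.967, 0.930 to 1.0). H2-D1 had 1405 CPM in CKO and 1610.0 CPM in WT (0.873, 0.836 to 0.911), and B2m had 1690.0 CPM in CKO and 1879 CPM in WT (0.899, 0.864 to 0.936). Nlrc5 had 37 UMIs in CKO and 292 in WT, or 21.4 CPM in CKO and 34.8 CPM in WT, a ratio of 0.614 (0.424 to 0.866). Tap1 (0.936), H2-T23 (0.939), H2-T22 (1.09) and H2-Q4 (0.985) had intervals that held 1.

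H2-Q6 was the member furthest from 1 in CD4 T cells. It had 12.7 CPM in CKO and 40.9 CPM in WT, from 22 UMIs in CKO and 343 UMIs in WT, a ratio of 0.311 (0.192 to 0.478). Its neighbour H2-Q7 had 338 CPM in CKO and 388 CPM in WT, a ratio of 0.872 (0.798 to 0.953). H2-Q6 thus made up 3.62% (2.28 to 5.43) of H2-Q6 plus H2-Q7 UMIs in CKO CD4 T cells and 9.54% (8.60 to 10.5) in WT CD4 T cells. None of the 90-base windows near the 3′ end of H2-Q6 was shared with H2-Q7. In CD8 T cells the share was 15.8% in CKO and 15.3% in WT. NK cells had 23.7% in CKO and 25.7% in WT, and follicular B cells 42.7% in CKO and 39.5% in WT. H2-Q6 UMIs were seen in 6.60% of CKO and 17.7% of WT CD4 T cells, against 0% of 63 CKO and 1.64% of 61 WT neutrophils. After thinning to 1000 UMIs the CD4 T shares were 1.39% (0.380 to 3.52) in CKO and 3.74% (2.75 to 4.96) in WT. The 5 B cell markers, from a class rich in H2-Q6, summed to 57.2 CPM in CKO and 44.2 CPM in WT CD4 T cells.

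CD4 T cells hold naive and antigen-experienced cells, so they were also split by genes of experience. Naive-like cells, with a UMI of a naive cell marker such as Ccr7 and none of S100a4, S100a6, Itgb1, Cxcr3, Ccl5 or Nkg7, were 67.0% of CKO and 63.8% of WT CD4 T cells. Among them H2-Q6 had 11.3 CPM in CKO and 23.7 CPM in WT, a ratio of 0.476 (0.247 to 0.846). In the rest it had 15.6 CPM in CKO and 68.4 CPM in WT, a ratio of 0.228 (0.103 to 0.440), from 9 UMIs in CKO and 221 UMIs in WT. The ratio was below 1 on both sides of this split, and the WT level was higher outside the naive-like gate. Nlrc5 had 17.3 CPM in CKO and 33.4 CPM in WT naive-like cells, a ratio of 0.520 (0.310 to 0.828), and a ratio of 0.792 (0.446 to 1.32) in the rest.

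**Figure D4:**
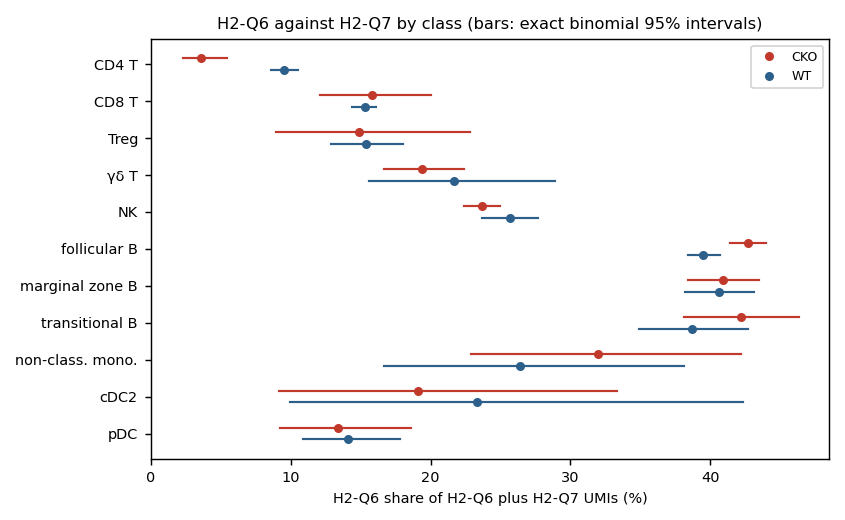
H2-Q6 as a percent of H2-Q6 plus H2-Q7 UMIs in 11 classes, CKO above WT, with exact binomial 95% intervals. The CD4 T intervals of the libraries lie apart, at 3.62% in CKO and 9.54% in WT, those of the follicular B cells lie just apart at 42.7% in CKO and 39.5% in WT, and those of the other 9 classes overlap.

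CD8 T cells, the class that recognises these molecules, gave no lower sum in CKO. The sum was 6743 CPM in CKO and 6531 CPM in WT, a ratio of 1.03 (0.997 to 1.07). All 10 members were measured, with 0 called lower, against 13.1% of measured genes, and 0 called higher, against 21.7%. H2-K1 had 1890.1 CPM in CKO and 1709.7 CPM in WT (1.11, 1.03 to 1.18), and H2-D1 had 1618 CPM in CKO and 1485 CPM in WT (1.09, 1.01 to 1.17). The median ratio of all measured genes in CD8 T cells was itself 1.06, and divided by it the ratios were 1.05 for H2-K1 and 1.03 for H2-D1. B2m had 1758 CPM in CKO and 1864 CPM in WT (0.943, 0.880 to 1.01). H2-Q7, at 605 CPM in CKO and 586 CPM in WT (1.03, 0.915 to 1.16), did not differ beyond counting error. The 65 CKO cells leave wide intervals for the scarcer members, such as 0.832 (0.461 to 1.39) for Nlrc5 from 15 CKO and 359 WT UMIs. The 5 NK markers summed to 375 CPM in CKO and 99.1 CPM in WT CD8 T cells, and their part in these values was not tested.

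NK cells held the largest class I sums among lymphocytes and showed a small shortfall in CKO. The sum was 9068 CPM in CKO and 9679.9 CPM in WT, a ratio of 0.937 (0.920 to 0.954). Of 10 measured members 0 were called lower, against 7.41% of measured genes, and 0 higher, against 7.62%. H2-K1 (0.918, 0.886 to 0.950), H2-D1 (0.927, 0.895 to 0.960) and B2m (0.912, 0.877 to 0.948) were lower with intervals clear of 1. H2-T23 had 351 CPM in CKO and 311 CPM in WT, a ratio of 1.13 (1.02 to 1.25). H2-Q7 had 846 CPM in CKO and 831 CPM in WT, a ratio of 1.02 (0.956 to 1.08).

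Classical monocytes, from 63 CKO and 28 WT cells, had a sum of 4932 CPM in CKO and 5601 CPM in WT, a ratio of 0.881 (0.832 to 0.932). Of 6 measured members 2 were called lower, against 13.9% of measured genes, and 0 higher, against 14.4%. These were H2-T22 (57.5 CPM in CKO and 87.6 CPM in WT) and Tap1 (72.6 CPM in CKO and 109 CPM in WT), both with intervals that held 1. B2m had 1756 CPM in CKO and 2136 CPM in WT, a ratio of 0.822 (0.749 to 0.903). H2-K1 had 839.7 CPM in CKO and 722 CPM in WT, a ratio of 1.16 with an interval that began at 1.

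Among the small classes, plasmacytoid dendritic cells and neutrophils had lower sums in CKO, and non-classical monocytes and type 2 dendritic cells did not differ beyond counting error. Plasmacytoid dendritic cells, 31 in CKO and 38 in WT, gave a ratio of 0.810 (0.771 to 0.852). Their H2-T23 ratio was 0.668 (0.558 to 0.797). Neutrophils, 63 in CKO and 61 in WT, gave 0.793 (0.738 to 0.852). Tap1 went the other way in them, with 33.2 CPM in CKO and 13.9 CPM in WT, from 30 CKO and 11 WT UMIs, a ratio of 2.38 (1.16 to 5.27). Non-classical monocytes gave 1.04 (0.982 to 1.09) and type 2 dendritic cells 0.959 (0.896 to 1.03). Regulatory T cells gave 0.891 (0.842 to 0.943). In γδ T cells the ratio was 0.94 (0.889 to 0.995), where the median of all measured genes was itself 0.926. There H2-D1 had 1846 CPM in CKO and 2399.6 CPM in WT, a ratio of 0.769 (0.688 to 0.862), while H2-Q7 had a ratio of 1.28 (1.06 to 1.57).

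Pooled over all cells the sum was 4916 CPM in CKO and 5995 CPM in WT, a ratio of 0.820 (0.816 to 0.824). This pooled ratio mixes levels with the makeup of the libraries, in which CD4 and CD8 T cells were fewer in CKO. H2-Q7 had a pooled ratio of 0.627, below its ratios in CD4 T cells (0.872), CD8 T cells (1.03) and NK cells (1.02) and above that in all B cells (0.581).

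Interferons raise class I genes, so members were read in B cells by UMIs of 14 interferon response genes, none of them a member. The CKO shortfall of the member sum was present at every level of these genes. In B cells with 10 or more such UMIs, H2-Q4 (0.895), H2-T22 (0.881), H2-T23 (0.943) and Tap1 (0.901) had intervals that held 1. The other members were lower with intervals clear of 1. B cells with 0 such UMIs, 3252 in CKO and 2407 in WT, had a member sum of 4172 CPM in CKO and 5111 CPM in WT, a ratio of 0.816 (0.807 to 0.826). Cells with 3 or more, 1999 in CKO and 1423 in WT, had 4457 CPM in CKO and 5377 CPM in WT, a ratio of 0.829 (0.819 to 0.839). Cells with 10 or more, 247 in CKO and 143 in WT, had 5026 CPM in CKO and 5981 CPM in WT, a ratio of 0.840 (0.815 to 0.867). These ranges also differ in depth, with a median of 6652 UMIs in CKO and 5965 UMIs in WT cells with 10 or more and 3952 UMIs in CKO and 4247 UMIs in WT cells with 0.

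Within each library the members differed in how far they followed the interferon genes. Between B cells with 10 or more and with 0 such UMIs, Nlrc5 was 4.42-fold (2.86 to 6.74) higher in CKO and 4.28-fold (2.95 to 6.12) higher in WT. Tap1 was 1.98-fold higher in CKO and 1.80-fold higher in WT. H2-T22 was 1.75-fold higher in CKO and 1.61-fold higher in WT, and H2-T23 1.57-fold in CKO and 1.38-fold in WT. B2m was 1.3-fold higher in CKO and 1.29-fold higher in WT. H2-D1 gave ratios of 0.986 (0.945 to 1.03) in CKO and 1.03 (0.979 to 1.08) in WT, so that it did not differ beyond counting error. The order Nlrc5, Tap1, H2-T22, H2-T23 was the same in both libraries, but the intervals of Tap1 and H2-T22 overlapped, as did those of H2-T22 and H2-T23. Of these, H2-T22, H2-T23 and B2m have promoter windows with GAAANNGAA. No match to these letters was found for H2-K1, H2-D1, H2-Q4, H2-Q6, H2-Q7 and Tap1, but other spellings of the element were not searched. The part of promoter letters in these differences was not tested.

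**Figure D5:**
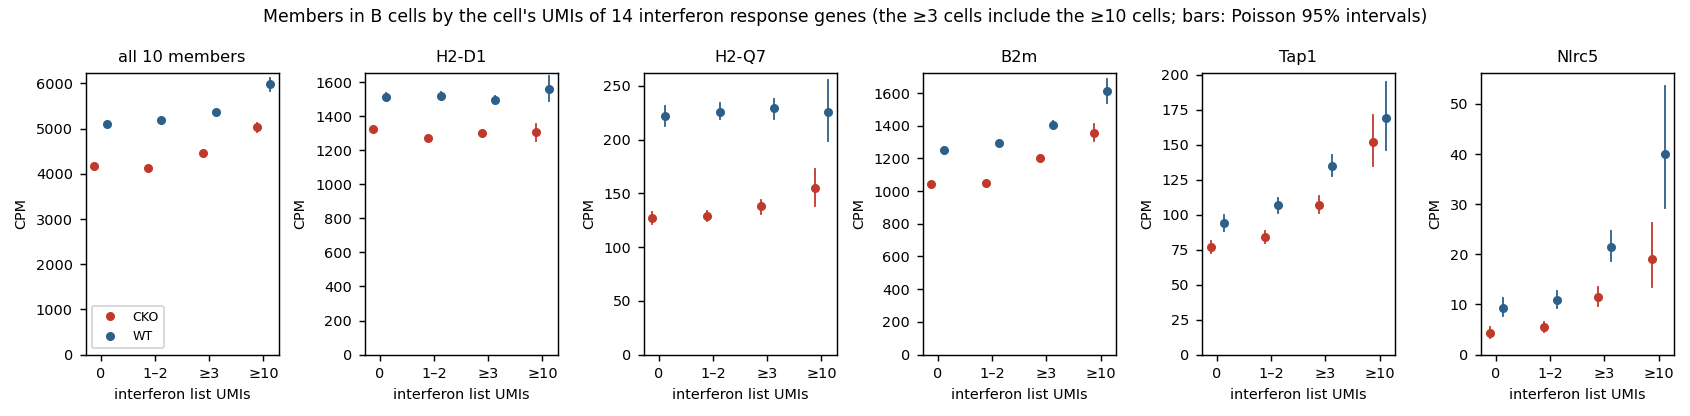
CPM of the member sum and of 5 members in B cells, by the cell's UMIs of the 14 interferon response genes, CKO left of WT, with Poisson 95% intervals and linear axes from 0. CKO points lie below WT points at every step, and from 0 to 10 or more UMIs Nlrc5 differs by 4.42-fold in CKO and 4.28-fold in WT while H2-D1 differs by 0.986-fold in CKO and 1.03-fold in WT.

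NK cells were compared at 3 or more against 0 interferon response UMIs and gave another pattern. At those levels the B cell member sum was 1.07-fold (1.06 to 1.08) higher in CKO and 1.05-fold (1.04 to 1.06) higher in WT. NK cells with 0 interferon response UMIs, 312 in CKO and 137 in WT, had a member sum of 8916 CPM in CKO and 8811 CPM in WT, a ratio of 1.01 (0.980 to 1.05). Those with 3 or more, 127 in CKO and 57 in WT, had 8965 CPM in CKO and 11185 CPM in WT, a ratio of 0.802 (0.770 to 0.835). In WT the sum was 1.27-fold (1.22 to 1.32) higher in the cells with 3 or more, and in CKO 1.01-fold (0.976 to 1.04). B2m was 1.03-fold higher in CKO and 1.42-fold higher in WT in this split, and H2-K1 had ratios of 0.951 in CKO and 1.28 in WT. H2-T22 (1.28 in CKO and 0.901 in WT) and Nlrc5 (1.52 in CKO and 0.659 in WT) went the other way, with intervals that held 1. In CD8 T cells the sum gave 0.952 (0.864 to 1.05) in CKO, from 22 and 14 cells, and 1.05 (1.03 to 1.08) in WT. In CD4 T cells it gave 1.08 (1.02 to 1.14) in CKO and 1.05 (1.02 to 1.08) in WT.

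In the median, other loading genes lay closer to 1 than the members in follicular B cells. They leaned the same way, with 13 of 19 below 1, against 35.5% of all measured genes. Of 19 loading and processing genes 1 was called lower in CKO and 0 higher, and their median log2 ratio was -0.07, against 0.038 for all measured genes, of which 0.731% were called lower. The called gene was Psmb9, an immunoproteasome subunit that shares its promoter region with Tap1, at 164 CPM in CKO and 216 CPM in WT (0.758, 0.726 to 0.791). Its partner subunits Psmb8 and Psmb10 had ratios of 0.951 and 0.896, and the second transporter subunit Tap2 0.914. The chaperones calreticulin (Calr, 1.03), calnexin (Canx, 1.0) and tapasin (Tapbp, 0.955) lay near 1. Of 4 measured class I-like genes 2 were called lower, H2-M3, which presents formylated peptides (71.2 CPM in CKO and 94.5 CPM in WT), and Fcgrt, the neonatal Fc receptor chain (20.1 CPM in CKO and 26.7 CPM in WT).

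Of 15 measured transcription factors of class I genes, 1 was called lower and 0 higher in follicular B cells. Among all measured genes there, 0.731% were called lower and 0.907% higher. The factor called lower was Irf1, with 55.3 CPM in CKO and 82.9 CPM in WT, a ratio of 0.667 (0.621 to 0.717). Ciita, the class II counterpart of Nlrc5, had 206 CPM in CKO and 246 CPM in WT, a ratio of 0.836 (0.804 to 0.869). Of the 9 measured interferon response genes 0 were called, against the same shares of all measured genes. Their ratios were above 1 for 8 and below 1 for Irf9 (0.944), where 35.5% of all measured genes were below 1. Their median log2 ratio was 0.10, against 0.038 for all measured genes. A difference of these genes from all measured genes was not tested.

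Of 19 loading genes 1 was called lower in CKO CD4 T cells, against 8.04% of all measured genes. CD4 T cells had lower Irf1 (84.3 CPM in CKO and 110.0 CPM in WT, 0.766) and Psmb9 (179.6 CPM in CKO and 235 CPM in WT, 0.765), and lower Irf8 (0.246, 0.0970 to 0.520). Against 9.47% of all measured genes, 5 of 11 measured interferon response genes were called higher in CKO CD4 T cells, Isg15 (1.43), Ifit1 (1.52), Ifit2 (1.59), Ifit3 (1.77) and Rsad2 (3.27), and Stat2 was called lower (0.602), as was the receptor chain Klrd1 (0.370, from 11 CKO and 144 WT UMIs). In CD8 T cells 2 of 19 loading genes were called lower, against 13.1% of all measured genes. There the loading chaperone Tapbp had 86.5 CPM in CKO and 127 CPM in WT (0.681). Of 10 measured interferon response genes 3 were called lower, Isg15 (0.591), Irf7 (0.551) and Irf9 (0.601), and 4 higher, against 21.7% of all measured genes, none of these 4 with an interval clear of 1. Klrc1, which encodes the Qa-1 receptor chain NKG2A, was called higher (39.1 CPM in CKO and 6.00 CPM in WT). In NK cells, where 7.41% of all measured genes were called lower and 7.62% higher, 0 of 19 loading genes were called, 2 of 9 interferon response genes, Isg15 (0.553) and Bst2 (0.701), were called lower, and of 8 class I receptors Klra1 was called higher (1.35) and Klra3 (0.762) and Cd160 (0.712) lower. In classical monocytes 4 of 8 measured interferon response genes were called lower, against 13.9% of all measured genes, and 0 higher. These cells had lower Tapbp (0.680), Lnpep (0.614), Nfkb1 (0.684), Isg15 (0.377) and Bst2 (0.536), and higher Lilrb4a (1.38).

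Outside these lists, 5 genes followed the member sum most closely across classes. Over 11 classes and 5132 genes, the lower of the Pearson correlations in the libraries was highest for Commd7 (0.94 in CKO and 0.95 in WT), Fyn, a Src family kinase of lymphocytes (0.93 in CKO and 0.95 in WT), 2210016F16Rik (0.93 in CKO and 0.92 in WT), Alg5, an enzyme of N-glycan assembly (0.91 in CKO and 0.97 in WT), and Cd48, a ligand of the lymphocyte receptor CD244 (0.90 in CKO and 0.94 in WT). Among the members the sum followed H2-K1 (0.96 in CKO and 0.95 in WT) and H2-D1 (0.95 in both) most closely, but these genes are themselves a large part of that sum. All points of a library share its handling and depth, so these values only describe the classes.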

How the data were processed

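Gene by cell matrices of whole UMI counts, not normalized, were deposited by the authors, 1 per library. The matrix headers name Cell Ranger 6.0.2, whereas mm10, Cell Ranger 5.0.0 and Seurat 4.0.3 are listed in the submitters' processing notes. Members and lists were chosen with earlier results of these data known. Cells with 200 to 6000 genes and under 10% mitochondrial UMIs were kept, and Scrublet (scanpy 1.11.5) scores at or above the quantile of the expected doublet rate (0.8% per 1000 cells) removed 1293 CKO (10.3%) and 1394 WT (11.0%) cells. The automatic threshold marked 9 CKO (0.0714%) and 532 WT (4.20%) cells and was not used. Cells were gated by marker UMIs, with thresholds set after seeing cell numbers: at least 2 Cd3 UMIs for T cells, 6 of B lineage genes such as Cd79a, Cd79b and Ms4a1 for B cells, and at most 1 UMI of other lineages (3 of B cells, 5 of neutrophils). Of the cells used, 7931 in CKO (70.1%) and 8010 in WT (71.0%) fell into 1 of 16 classes, of which 13 held 20 or more cells in each library. UMIs were summed per class and library. No test between genotypes was made. The splits by naive-like genes and by 0 or at least 10 interferon response UMIs were chosen after seeing the data. Intervals are exact Poisson (CPM), conditional binomial (ratios) and Clopper-Pearson (shares), and the ratio and call code was tested on simulated data. Medians of log2 ratios used a pseudocount of 1 CPM. Named genes were all 10 members, and listed pathway genes beyond 1.3-fold (some of these are not reported here) with an interval clear of 1 in CD4 T, CD8 T, follicular B, NK cells or classical monocytes. Psmb8, Psmb10, Tap2, Calr, Canx, Tapbp, Irf9 and Ciita in follicular B cells were named after their values were seen. Overlapping genes on the other strand (Gm11131 for H2-Q4, A930015D03Rik for H2-T22 and H2-T23, Patl2 for B2m, Psmb9 for Tap1, 9330175E14Rik for Nlrc5) can share reads if strand was ignored, which the sources used here do not state. Windows of 90 bases near the 3′ end were also shared with other transcripts for H2-T23 (16.1%), H2-Q4 (12.5%) and H2-Q6 (7.72%), and not between H2-Q6 and H2-Q7. Gene positions are from GENCODE M21. H2-K2, H2-Bl, H2-T9, H2-T10 and Cd1d2 had no row under those symbols. Python 3.11.15, numpy 2.4.6, scipy 1.17.1 and pandas 2.3.3 were used.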

Additional observations from a re-analysis of the deposited data

Results flagged for a closer look

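Among CD4 T, CD8 T, follicular B, NK cells and classical monocytes, 3 members had a CKO over WT ratio above 1 in one class and below 1 in another, with both intervals clear of 1. H2-D1 had a ratio of 1.09 in CD8 T cells, against 0.873 in CD4 T cells, 0.866 in follicular B cells, 0.927 in NK cells and 0.878 in classical monocytes. H2-K1 had a ratio of 1.11 in CD8 T cells, against 0.801 in follicular B cells and 0.918 in NK cells. The median ratio of all measured genes in CD8 T cells was 1.06, and divided by it the CD8 T ratios were 1.05 for H2-K1 and 1.03 for H2-D1. H2-T23 had a ratio of 1.13 in NK cells, against 0.863 in follicular B cells and 0.792 in classical monocytes. Outside these 5 classes, ratios above 1 with intervals clear of it were those of H2-Q7 in γδ T cells (1.28), Tap1 in neutrophils (2.38) and H2-Q4 in regulatory T cells (1.36), against 0.578, 0.770 and 0.798 for the same genes in follicular B cells. With 1 library per genotype these differences between classes were not tested.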

How the results depend on the processing

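No paired analysis was possible because each genotype has 1 library. The sum of the members was recomputed with no and a stricter filter on cells, doublet-scored cells kept, stricter gates, looser exclusion of other classes, each cell counted alike and 2 other scalings. Under these settings the sums in CD4 T, follicular B, NK cells and classical monocytes stayed below 1, and that in CD8 T cells, whose interval held 1, fell on either side. Without mitochondrial, ribosomal, receptor and haemoglobin genes in the total, the ratio was 0.988 in CD8 T cells and 0.809 in follicular B cells. Divided by the median ratio of all genes it was 0.895 in CD4 T cells, 0.978 in CD8 T cells and 0.796 in follicular B cells. In cells with 0 interferon response UMIs, a setting chosen after seeing the data, it was 1.09 in CD8 T cells (14 CKO and 142 WT cells), 0.828 in follicular B cells and 1.01 in NK cells. With doublet-scored cells kept it was 0.941 in classical monocytes. Of 45 combinations of member and class, the median scaling moved 3 beyond counting error (H2-K1 0.779, H2-D1 0.843 and B2m 0.809 in follicular B cells) and 7 other settings moved 0, leaving out the cell with most UMIs included. Medians over the members were within counting error with a pseudocount of 5 CPM or no minimum. Of 50 differences in shares of cells with a UMI, 16 differed beyond counting error when cells were thinned to 2000 in place of 1000 UMIs. Depth limits the scarce genes and small classes, as for Nlrc5 with 15 UMIs in CKO CD8 T cells. The cause was not tested.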
